A study of Mus musculus with 30 samples.

Results

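The sites described here are 845 ATAC-seq peaks, of 38526 in the study, that opened in wild-type natural killer (NK) cells on stimulation through NK1.1. In stimulated cells with prostaglandin E2 (PGE2) present, these sites stood little above untreated rest. ATAC-seq reads open chromatin by letting a transposase cut and tag accessible DNA. Members were chosen on group means of log2(normalised count + 1) in the wild-type libraries. The rise from untreated rest to untreated stimulation had to be at least 1, and the share of that rise still reached in stimulated cells with PGE2 (the retained share) at most 0.3. PGE2 alone had to raise the resting level by less than 0.8, with no limit on how far it lowered it. Of all peaks, 5436 had the rise, and 845 of these (15.5%) met the other 2 conditions. Since wild-type values chose the members, everything given below for wild-type cells, and every comparison with them, is a description without a test.

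NK cells from mouse spleens, kept in culture with IL-2 at a low dose and IL15:IL15Ra over 5 days, were compared in 8 groups by genotype, PGE2 and stimulation. The genotypes were C57BL/6J (WT) and GzmbCre Ptger2-/- Ptger4 fl/fl (KO), a genotype that removes the PGE2 receptors EP2 (Ptger2) and EP4 (Ptger4) from NK cells. Within each genotype, cells were untreated for 5 h without stimulation, untreated with NK1.1 stimulation for the last 4 h, treated with PGE2 at 100 ng/ml for 5 h, or given PGE2 for 1 h before and then during 4 h of stimulation. All groups held 4 libraries except WT with PGE2 at rest and untreated KO at rest, which held 3. Only the KO mice carried Cre, driven by Gzmb sequence as the allele's name reads, and Ptger2 was deleted outright while Ptger4 was floxed, so receptor loss and Cre cannot be told apart between genotypes. The labels do not say that replicates were separate animals or cultures, so p-values measure the spread between these libraries, which may be technical. Libraries held 8444350 to 20153816 reads in peaks. The untreated resting KO library of replicate 2 had 26 peaks at 0, the most of any library, and KO replicates 1 and 2 were generally shallower than 3 and 4. Of the 7 peaks at the receptor genes, 2 separated the genotypes. The Ptger2 promoter peak read 560 to 1109 in the 15 WT and 83.6 to 247 in the 15 KO libraries, and the Ptger4 exon peak 434 to 685 and 56.2 to 152. The other 5 Ptger4 peaks overlapped between genotypes, the promoter among them at 822 to 1455 in WT and 901 to 1605 in the KO.

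NK1.1 is an activating receptor of mouse NK cells that signals through ITAM-bearing adaptors, tyrosine kinases and phospholipase C. Calcium then activates NFAT, and protein kinase C and MAP kinases lead to NF-κB and AP-1, which together drive cytokine, chemokine and granule genes. PGE2 acts on EP2 and EP4, Gs-coupled receptors that raise cAMP and activate protein kinase A, a pathway known to restrain NK cell effector functions. A peak's height in pooled cells cannot tell fewer cells with an open site from a site less open in each cell. Peaks carry the gene and class (promoter, exon, intron or intergenic) that the authors' deposited table gives, and accessibility near a gene is not its expression.

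Promoter sequences of some members are given in letters, beside opened promoters that are not members. Of the 845 members, 79 held at least 1 whole RefSeq promoter window (250 bases before to 50 after a start site, build GRCm38.p6), 105 windows in all. Shown are the 250 bases before the start, 5′ to 3′ on the gene's strand, with matches to AP-1 (TGANTCA), NFAT (TGGAAA), NF-κB (GGANTTNCC) and CRE (TGACGTCA) on either strand in capitals. N is any base, an AP-1 match cannot be a CRE match at the same place, and NFAT and NF-κB matches can overlap. Ccl9 and Ccrl2 come from the rule for named peaks, and Tnf, Ccl3 and Tnfsf14 were chosen after their values were seen, as promoters of secreted or surface effector genes. 3300005D01Rik and Gm39566, the latter in a peak that the table assigns to Spem2, are not members. They are shown for contrast, as the opened promoters with an AP-1 match, a retained share over 0.6 and the largest rises.
Ccl9 (chr11:83578637-83578886, minus strand): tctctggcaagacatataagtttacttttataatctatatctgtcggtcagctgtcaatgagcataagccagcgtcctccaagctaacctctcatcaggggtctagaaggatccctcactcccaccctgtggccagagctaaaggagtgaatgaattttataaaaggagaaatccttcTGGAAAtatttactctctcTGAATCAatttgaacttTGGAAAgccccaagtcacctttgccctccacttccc
Ccrl2 (chr9:111057519-111057768, minus strand): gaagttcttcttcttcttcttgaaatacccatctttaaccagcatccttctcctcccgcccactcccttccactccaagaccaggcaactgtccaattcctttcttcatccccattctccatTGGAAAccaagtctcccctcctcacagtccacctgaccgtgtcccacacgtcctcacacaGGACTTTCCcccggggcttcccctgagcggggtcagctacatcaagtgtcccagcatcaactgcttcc
Tnf (chr17:35202008-35202257, minus strand): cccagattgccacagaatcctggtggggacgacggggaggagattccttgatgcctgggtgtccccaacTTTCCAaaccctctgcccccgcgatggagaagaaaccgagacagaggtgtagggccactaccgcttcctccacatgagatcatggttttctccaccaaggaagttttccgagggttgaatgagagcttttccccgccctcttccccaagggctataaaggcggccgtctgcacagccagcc
Ccl3 (chr11:83649379-83649628, minus strand): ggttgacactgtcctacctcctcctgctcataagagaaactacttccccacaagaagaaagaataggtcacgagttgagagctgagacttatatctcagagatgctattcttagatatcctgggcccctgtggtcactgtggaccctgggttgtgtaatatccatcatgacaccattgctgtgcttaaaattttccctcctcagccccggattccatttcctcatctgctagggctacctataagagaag
Tnfsf14 (chr17:57194182-57194431, minus strand): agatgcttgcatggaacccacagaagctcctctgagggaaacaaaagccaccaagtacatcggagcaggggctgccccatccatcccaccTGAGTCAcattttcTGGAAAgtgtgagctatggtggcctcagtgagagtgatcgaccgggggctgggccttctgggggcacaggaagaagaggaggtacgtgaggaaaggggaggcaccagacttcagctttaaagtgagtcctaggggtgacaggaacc
3300005D01Rik (chr17:5798407-5798656, plus strand, not a member): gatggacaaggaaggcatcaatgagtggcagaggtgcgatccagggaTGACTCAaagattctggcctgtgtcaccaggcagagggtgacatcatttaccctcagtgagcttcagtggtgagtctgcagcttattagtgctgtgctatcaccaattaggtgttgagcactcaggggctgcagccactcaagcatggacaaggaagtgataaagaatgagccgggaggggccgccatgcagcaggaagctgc
Gm39566 (chr11:69815345-69815594, minus strand, not a member): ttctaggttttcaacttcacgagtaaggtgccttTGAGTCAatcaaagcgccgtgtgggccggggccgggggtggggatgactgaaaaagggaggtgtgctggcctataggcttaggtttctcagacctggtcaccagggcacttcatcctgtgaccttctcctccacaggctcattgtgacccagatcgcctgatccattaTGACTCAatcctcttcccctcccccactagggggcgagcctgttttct
The Ccl3 stretch held no match to these 4 motifs, Tnf held 1 NFAT match, and Ccrl2 held 1 NFAT and 1 NF-κB match. Ccl9 and Tnfsf14 each held an AP-1 match, which few member promoters did. For Ccrl2 the most upstream of its 3 windows is shown. The 3300005D01Rik and Spem2 peaks rose by 2.77 and 2.99 in WT and retained 0.755 and 0.639.

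AP-1 matches were in 6 of the 105 member windows (5.7%), against 51 of 187 windows (27.3%) in the other stimulation-opened peaks, 4.7% of the 12316 windows in all peaks and 7.8% of all 32817 windows. Ordered by retained share, 5.7% of opened windows matched AP-1 at a share of at most 0.3, 24.1% of 108 windows between 0.3 and 0.6, and 31.6% of 79 windows above 0.6. The bins above 0.3 set no limit on opening by PGE2 alone, which counts toward the retained share. With a PGE2 change at rest under 0.8 and a share of at least 0.8, 7 of 22 windows (31.8%) matched AP-1. NFAT matches did not follow the order of retained share seen for AP-1: 26.7% of member windows, 24.6% of windows in other opened peaks, 15.5% of those in all peaks and 21.4% of all windows held one. NF-κB matches were in 7.6%, 9.6%, 4.0% and 3.9% of the same sets, and CRE matches in 4.8%, 5.3%, 3.4% and 1.8%. The GC box (GGGCGGG) was in 42.9%, 32.6%, 49.7% and 25.6%. Member windows were richer in G and C than those of other opened peaks, with medians of 62.0% and 56.3%. Within windows of under 60% GC, AP-1 matches were in 4 of 38 member windows (10.5%) and 37 of 122 other opened windows (30.3%). Within windows of 60% GC or more they were in 2 of 67 (3.0%) and 14 of 65 (21.5%). For NFAT the same strata read 17 of 38 (44.7%) and 35 of 122 (28.7%) under 60% GC, and 11 of 67 (16.4%) and 11 of 65 (16.9%) at 60% or more. The near-equal NFAT shares over all windows thus did not hold among windows of lower GC. Counted by peak, 6 of 79 member peaks (7.6%) and 46 of 152 other opened peaks (30.3%) held an AP-1 match. These shares are descriptions without a test, windows of 1 peak overlap, and the 766 members without a promoter window are not covered by them.

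**Figure D1:**
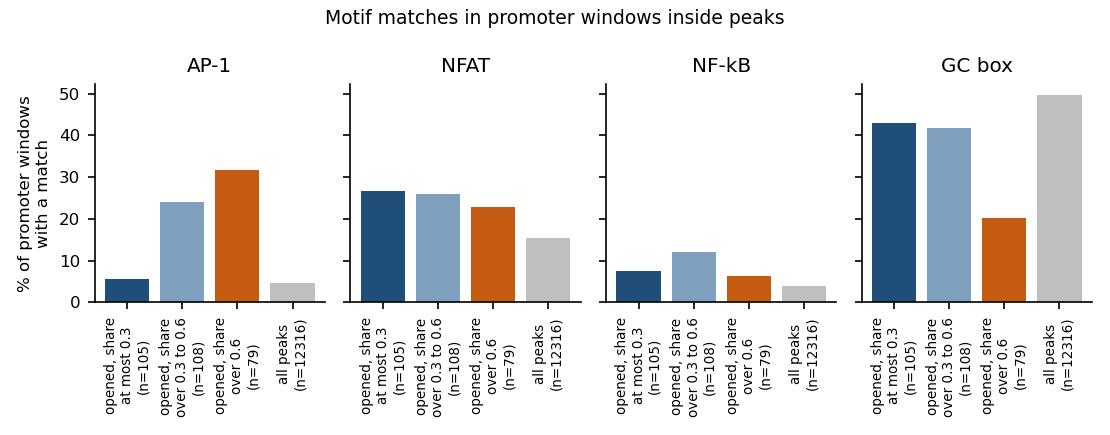
Share of RefSeq promoter windows inside peaks (y axis, %) that hold a match to each of 4 motifs, for opened peaks split by the share of the WT rise retained with PGE2 and for all peaks, with the number of windows under each bar. The AP-1 bars go from 5.7% to 24.1% and 31.6% as the retained share grows, while the NFAT bars lie between 22.8% and 26.7% in opened peaks. The bins with higher retained shares set no limit on opening by PGE2 alone.

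In WT cells the members moved as their rule requires. Their median level was 49.3 normalised counts at untreated rest, 156 with stimulation and 58.8 with stimulation under PGE2, and the median over all 38526 peaks at rest was 156. The median rise was 1.496 on the log2 scale, from 1.00 to 5.18, and 208 members rose by at least 2 and 32 by at least 3. The median retained share was 0.188. In 114 members (13.5%) it was 0 or below, so that the level with PGE2 and stimulation was at or under untreated rest, and in 397 it lay over 0.2, close to the threshold. At rest PGE2 alone moved the members by a median of −0.13, and 595 of 845 were lower with it than without. The other 4591 opened peaks had a median of 0.392 with PGE2 at rest. Counted from PGE2 at rest instead, stimulation under PGE2 moved the members by a median of 0.397, from −0.648 to 1.568. The median for the other opened peaks was 0.82. In 837 members every stimulated library without PGE2 lay above every one with PGE2, which 20.4% of all peaks did, and the rule used this contrast.

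Library by library, the median over members of the log2 change from untreated rest was 1.44 to 1.59 in the 4 stimulated WT libraries and 0.249 to 0.303 in the 4 with PGE2 and stimulation. It was −0.155 to −0.118 in the 3 WT libraries with PGE2 at rest. In the KO, the same medians were 1.44 to 1.58 with stimulation, 1.30 to 1.58 with stimulation and PGE2, and −0.195 to 0.127 with PGE2 at rest. The WT libraries with stimulation and PGE2 thus sat apart from those without PGE2, and the corresponding KO libraries overlapped.

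**Figure D2:**
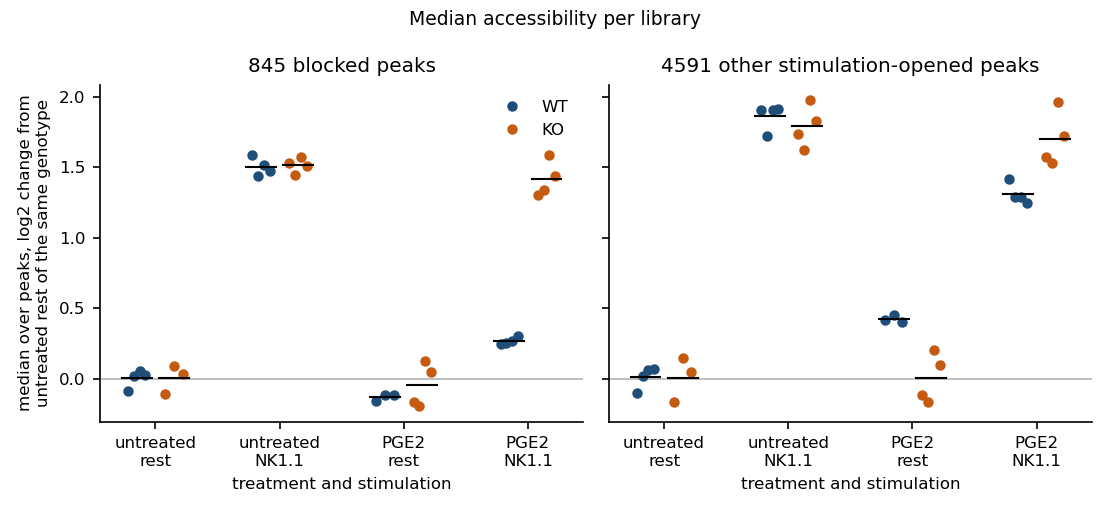
Median log2 change from untreated rest of the same genotype (y axis), 1 point per library, lines at group means, for the 845 blocked peaks (left) and the 4591 other opened peaks (right). For the blocked peaks, WT libraries with PGE2 and NK1.1 lie at 0.249 to 0.303 and KO libraries at 1.30 to 1.58.

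KO libraries took no part in choosing the members, and in them the sites opened with stimulation whether or not PGE2 was present. With limma, 838 of 845 members were called higher with stimulation in untreated KO cells, at a Benjamini-Hochberg adjusted p under 0.05 over all 38525 tested peaks, against 28.1% of all tested peaks. The members' median change was 1.505, that of the other opened peaks 1.79 and that of all peaks −0.03, and all 845 members had a change above 0. Without the untreated resting KO library of replicate 2, 822 members were called. With PGE2 in both arms, libraries that this comparison does not share with the first, 841 of 845 members rose with stimulation, with a median of 1.45, where 27.7% of all tested peaks were called higher.

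No member was called lower with PGE2 during stimulation in KO cells by limma, and the background was 0% of all tested peaks. After adjustment, edgeR and DESeq2 on recovered reads also called 0. At an unadjusted p under 0.05, 23 members were lower and 0 higher with limma, 2.72% of the members. Of all tested peaks 4.24% passed in either direction, and the share that was lower was not counted, so the 2 shares are not alike. The members lower at this level were 35 with the replicate block. They ran from 10 to 66 when each KO library was left out, the last without replicate 3 of stimulation with PGE2. The median change was −0.12, against −0.10 in the other opened peaks and −0.01 over all peaks, and 164 of 845 members were above 0. Changes ranged from −0.75 to 0.48, with a median standard error of 0.20. The change minus 2 standard errors stayed above a loss of 0.7 of the KO rise, the loss that defines the members in WT, in 816 of 845 members, and above a loss of 0.3 in 419. A small loss under PGE2 in the KO was therefore not detectable at this spread for many members. Every stimulated KO library without PGE2 lay above every one with PGE2 in 21 members (2.5%), against 1.12% of all peaks. At rest, PGE2 gave 0 calls among the members in KO cells (background 0%, limma, with edgeR and DESeq2 also at 0), and the median was −0.07. At an unadjusted p under 0.05, 13 members were higher and 42 lower there, 6.51% of the members against 3.95% of all tested peaks in either direction.

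The retained share, recomputed in KO cells for the 842 members with a KO rise of at least 0.5, had a median of 0.928. It was at least 0.8 in 772 members and at most 0.3 in 0. The same median was 0.949 in the other opened peaks and 0.938 over all peaks with such a KO rise. Near-full retention in the KO was therefore not particular to the members. Taken for each stimulated library with PGE2, the median over members was 0.876, 0.897, 1.04 and 0.946 in KO replicates 1 to 4 and 0.167, 0.169, 0.180 and 0.193 in WT. Under stimulation with PGE2, every KO library lay above every WT library in 816 members, against 18.3% of all peaks, a contrast that includes the WT values of the rule. Over the 845 members the WT and KO rises correlated with a Pearson r of 0.882, against 0.963 over all 38526 peaks. Both are descriptions across peaks of the same libraries.

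**Figure D3:**
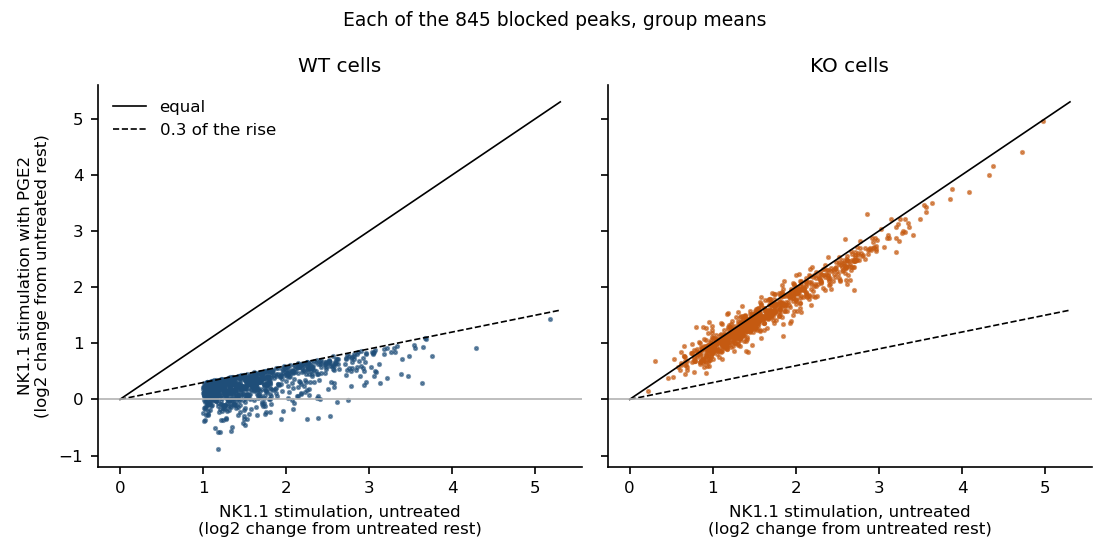
Log2 change from untreated rest with stimulation (x axis) and with stimulation and PGE2 (y axis), 1 point per member, in WT (left) and KO (right). The solid line marks equal changes and the dashed line 0.3 of the rise. WT points lie under the dashed line because the rule placed them there, and KO points lie near the solid line, at a median retained share of 0.928.

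Among 74 opened peaks of NK cytokine and chemokine genes, 17 were members (23.0%) at 12 genes, against 15.5% of all opened peaks. All 17 were called higher with stimulation in untreated KO cells, as were 838 of all 845 members. The counts called in the lists below have the same background and do not set a list apart. The largest rise of all members was at an exon peak of Ccl1, a ligand of the chemokine receptor CCR8 (chr11:82173321-82177520). It read 69.1, 74.8, 107 and 58.5 normalised counts at WT rest, 4374, 3044, 2135 and 2069 with stimulation, and 254, 254, 149 and 180 with stimulation and PGE2. KO libraries with stimulation and PGE2 read 3563, 3981, 2710 and 2167. The stimulated WT libraries with PGE2 stood above rest but far under those without PGE2, and the KO libraries overlapped the WT ones without PGE2. In untreated KO cells it rose by 4.98 ± 0.24 (SE, limma adjusted p = 2.37e-19).

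Xcl1, which encodes a chemokine that attracts cross-presenting dendritic cells, had 2 members. The stronger, intergenic (chr1:164989659-164990590), read 15.7, 30.1, 18.7 and 9.55 at WT rest, 394, 304, 361 and 356 with stimulation, and 34.8, 30.1, 37.7 and 30.9 with PGE2 as well. In KO cells with stimulation and PGE2 it read 302, 309, 359 and 275. The WT libraries with PGE2 lay at the top of the resting range or just above it, and no stimulated KO library came near it. The change with stimulation in untreated KO cells was 4.37 ± 0.29 (limma adjusted p = 2.76e-15).

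The promoters of Ccl3 and Ccl4, neighbouring genes for inflammatory chemokines, were members with high levels. At the Ccl3 promoter peak (chr11:83646107-83649993) WT rest read 1107 to 1366, stimulation 3820 to 4922, PGE2 at rest 526 to 611, and stimulation with PGE2 1257 to 1519. PGE2 alone thus put this promoter under untreated rest in every library, and stimulation under PGE2 brought it back to about the untreated resting range. At the Ccl4 promoter (chr11:83662037-83663090) the same 4 groups read 363 to 413, 1623 to 2177, 212 to 243, and 556 to 646. KO libraries with stimulation and PGE2 read 3122 to 4209 at Ccl3 and 1275 to 1613 at Ccl4. Ccl3, Ccl4, Ccl9, the granzymes and the Ly6 genes belong to families of similar sequence, where the counting could split reads, and their values are uncertain to that extent.

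The lowest retained share among members of at least 50 counts, −0.756, was at the promoter of Ccl9, a CCR1 ligand (chr11:83578203-83579609). WT libraries read 131, 107, 130 and 127 at rest, 285, 247, 311 and 279 with stimulation, 52.2, 66.7 and 93.1 with PGE2 at rest, and 55.7, 70.3, 69.3 and 70.1 with both. With PGE2 every library, stimulated or not, was under every untreated resting library. KO libraries with both read 216, 174, 263 and 204, and the change with stimulation in untreated KO cells was 1.32 ± 0.17 (limma adjusted p = 3.36e-08). An intron peak of Tnfsf8, the CD30 ligand (chr4:63841851-63842895), had the same shape, with 164 to 219 at WT rest, 409 to 491 with stimulation, 81.3 to 94.8 with PGE2 and 106 to 148 with both. Its KO libraries with both read 378 to 436.

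The other cytokine members included death-receptor ligands and classical effector cytokines. At an intergenic peak of Tnfsf10, which encodes the death ligand TRAIL (chr3:27310782-27311631), the WT means were 9.85 at rest, 64.6 with stimulation and 14.4 with PGE2 as well, and the KO mean with both was 82.4. The Tnf promoter (chr17:35201325-35202343) read 80.0 to 102 at WT rest, 316 to 540 with stimulation and 88.7 to 146 with both, and 314 to 401 in KO cells with both. The Ifng promoter, of the signature NK cytokine (chr10:118440476-118441519), read 349 to 427, 729 to 897 and 409 to 460 in the same WT groups, and 639 to 707 in KO cells with both. With PGE2 the stimulated WT libraries of these 3 peaks overlapped the resting ones, and the KO libraries did not. At the Tnfsf14 promoter (LIGHT, a ligand of HVEM) the WT means were 485, 1432 and 642, and the KO mean with both was 1199. The Tnf, Ifng, Ccl3, Ccl4 and Tnfsf14 promoters were picked after their values were seen.

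**Figure D4:**
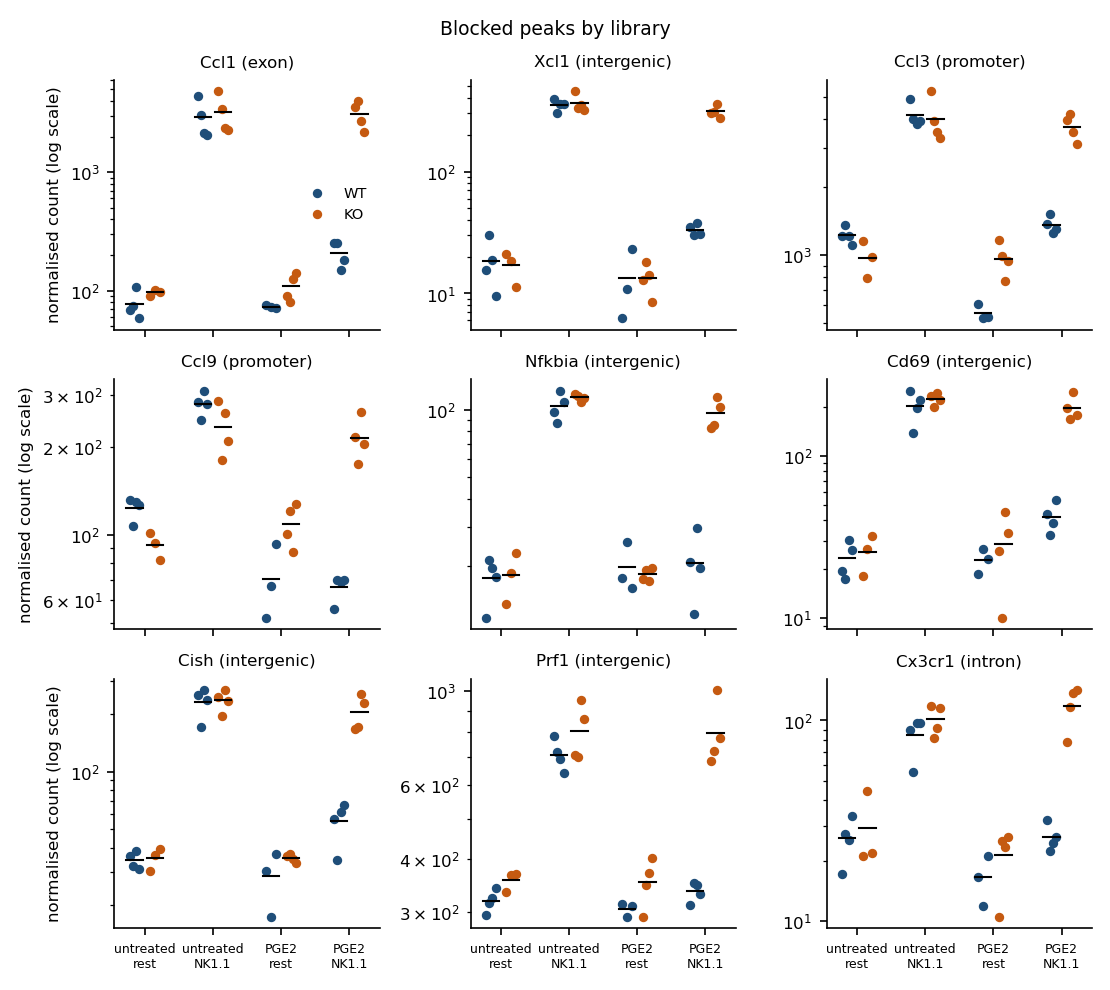
Normalised counts (log y axis) of 9 members by library, WT and KO side by side in 4 conditions, lines at group means. In every panel the WT libraries with PGE2 and NK1.1 lie under the KO libraries of the same condition, as at Xcl1, with 30.1 to 37.7 in WT and 275 to 359 in the KO.

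The list of NFAT, EGR, NR4A, AP-1 and NF-κB factors and their inhibitors had 21 members among 102 opened peaks (20.6%), and all 21 were called higher with stimulation in untreated KO cells. Among these members, the largest rises were at inhibitors and regulators of NF-κB, and non-member peaks of the list rose more, such as a Nfkb1 intron peak by 4.32. An intergenic peak of Nfkbia, which encodes IκBα (chr12:55460568-55461194), read 11.8, 21.4, 19.6 and 17.9 at WT rest, 97.2, 86.7, 121 and 108 with stimulation, and 20.9, 12.3, 29.6 and 19.6 with both. It retained 0.071 of its rise in WT and 0.905 in the KO. Resting libraries and those with both overlapped, while KO libraries with both read 82.5, 85.6, 113 and 103. A distal peak of Tnfaip3, the ubiquitin-editing enzyme A20 (chr10:18959706-18960503), had WT means of 20.4, 121 and 32.5 and a KO mean with both of 110. At a distal peak of Nfkbid, an atypical IκB (chr7:30428952-30430971), the WT means were 79.7, 336 and 114 and the KO mean with both was 350. Members at Nfkbie (exon, retained 0.091) and Nfkbiz (intergenic, retained 0.018), also IκB family genes, had KO retained shares of 0.967 and 1.03. These 2 and the AP-1 genes below were chosen after their values were seen.

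Of the AP-1 subunit genes, Fosb, Junb and Jund had members. The intergenic Junb peak (chr8:84982247-84982963) read 280 to 312 at WT rest, 748 to 957 with stimulation, 185 to 246 with PGE2 at rest and 271 to 311 with both. With both, every WT library lay within or just under the resting range, and KO libraries with both read 711 to 859. An exon peak of Fosb (chr7:19303825-19304878) had WT means of 105, 403 and 126 and a KO mean with both of 426, and its KO retained share was 1.00. Nfatc1 had 2 members of 5 opened peaks and Nfkb1 3 of 8. Of the same list's 102 opened peaks 18 (17.6%) kept at least 0.8 of the rise, beside 1435 of all 5436 opened peaks (26.4%). These counts, here and for the lists below, set no limit on opening by PGE2 alone. Of the 1435, only 566 had a PGE2 change at rest under 0.8.

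Co-stimulatory and TNF receptor genes had 5 members of 33 opened peaks (15.2%, beside 15.5% of all opened peaks), all called higher with stimulation in untreated KO cells. Among the members the largest rise was at an intergenic peak of Cd69, an early activation antigen (chr6:129265659-129267244). It read 19.6, 17.5, 30.4 and 26.3 at WT rest, 251, 138, 197 and 220 with stimulation and 43.7, 32.4, 38.7 and 53.3 with both, against 198, 168, 246 and 179 in KO cells with both. The WT libraries with both were all above rest and all under stimulation without PGE2. Tnfrsf18 (GITR) and Tnfrsf4 (OX40), neighbours on chromosome 4, had a member each. The intergenic Tnfrsf18 peak had WT means of 35.3, 189 and 57.3 and the Tnfrsf4 promoter 25.6, 129 and 37.2, with KO means with both of 175 and 142. All 5 opened peaks of Tnfrsf9, which encodes 4-1BB, retained 0.548 to 0.740 and none was a member, although its exon peak rose by 4.45, more than that of Cd69. Of 14 opened peaks of inhibitory receptor genes, 1 was a member, an intergenic peak of Lilrb4a with WT means of 14.3, 85.4 and 23.0, and the Lilrb4a promoter lay just outside at a retained share of 0.3006.

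Genes of the IL-2, IL-15 and STAT5 pathway had 6 members of 30 opened peaks (20.0%), all called in untreated KO cells. Cish encodes a SOCS-family inhibitor of IL-15 signalling in NK cells. Its intergenic member (chr9:107305867-107306618) read 31.1 to 38.3 at WT rest, 172 to 267 with stimulation and 34.6 to 67.3 with both, and 167 to 255 in KO cells with both. The other 4 opened Cish peaks retained 0.329 to 0.420, just above the threshold. An intron peak of Bcl2, the survival factor, had WT means of 102, 435 and 148 and a KO mean with both of 417. An intergenic peak of Lrrc32 (GARP, which holds latent TGF-β) had 323, 1001 and 420, with 862 in the KO.

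Cytotoxic granule genes had 5 members of 19 opened peaks (26.3%), and all 5 were called higher with stimulation in untreated KO cells. A distal peak of the perforin gene Prf1 (chr10:61305846-61309038) read 296, 315, 324 and 342 at WT rest, 784, 720, 691 and 639 with stimulation and 312, 353, 348 and 332 with both. It retained 0.065 of the rise in WT, the libraries with both overlapped rest, and KO libraries with both read 684 to 1007. At an exon peak of Gzmb, the serine protease granzyme B (chr14:56259415-56260222), PGE2 moved the resting level by 0.721, close to the limit of 0.8. Its WT means were 33.9 at rest, 245 with stimulation, 57.4 with PGE2 and 58.9 with both, and reads from the GzmbCre allele, where it shares sequence, cannot be told apart in the KO. An exon peak of Rab27a, which docks granules at the membrane, had 135, 345 and 178, with 327 in the KO.

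NK transcription factor genes had 7 members of 61 opened peaks (11.5%), beside 15.5% of all opened peaks, and 14 of those 61 (23.0%) kept at least 0.8 of the rise, beside 26.4%. All 7 were called higher with stimulation in untreated KO cells. At distal peaks of Tbx21 (T-bet, the T-box factor that drives effector maturation) the stronger member had WT means of 83.3, 343 and 118 and a KO mean with both of 317. A distal peak of Gata3, a factor of NK and innate lymphoid cells (chr2:9615885-9617080), had 34.2, 164 and 37.4, a retained share of 0.060, and 204 in the KO. An intron peak of Runx1 had 38.2, 144 and 47.1, with 122 in the KO.

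In the list of NK and ITAM signalling genes 14 of 90 opened peaks were members (15.6%), all 14 called in untreated KO cells. Tagap, a GTPase-activating protein gene, had WT means of 50.5, 244 and 56.9 at a distal peak, and Sla, an adaptor that dampens receptor signalling, had 139, 533 and 119 at an intron peak. The Sla libraries with PGE2 averaged 84.5 at rest. Intron peaks of the kinase gene Syk and of the phospholipase gene Plcg2, chosen after their values were seen, retained 0.068 and 0.139 in WT and 1.01 and 0.933 in the KO.

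Genes of the cAMP pathway itself had 5 members of 38 opened peaks (13.2%), all called in untreated KO cells, while 15 of the 38 (39.5%) kept at least 0.8 of the rise, beside 26.4% of all opened peaks. Prkar1b encodes a regulatory subunit of protein kinase A, and its intron member read 18.5 to 41.2 at WT rest, 87.2 to 121 with stimulation and 22.4 to 32.6 with both. The libraries with both lay inside the resting range. Distal Pde4b (a cAMP phosphodiesterase) and intronic Sik3 (a kinase inhibited by protein kinase A) members had retained shares of 0.065 and 0.120. None of the 11 opened peaks of glycolysis, nutrient uptake and mTOR genes was a member, and 6 of them (54.5%) kept at least 0.8. As above, the shares that kept at least 0.8 set no limit on opening by PGE2 alone.

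Chemokine receptor and migration genes had 4 members of 29 opened peaks (13.8%) and cytokine mRNA decay genes 4 of 14 (28.6%), and all 8 were called in untreated KO cells. At an intron peak of Cx3cr1, the fractalkine receptor of mature NK cells (chr9:119995737-119996552), WT libraries read 17.3 to 33.4 at rest, 55.6 to 97.5 with stimulation and 22.3 to 31.8 with both. KO libraries with both read 78.3, 117, 138 and 142. A distal peak of Cxcr4, a bone marrow homing receptor (chr1:128737839-128738648), was the member of at least 50 counts with the largest positive PGE2 change in stimulated KO cells, 0.48 ± 0.25 (limma adjusted p = 0.999). KO libraries 1 to 4 there read 76.6, 44.9, 44.1 and 51.3 with stimulation and 107, 108, 55.4 and 47.2 with both, so the groups overlapped. Its rise in untreated KO cells (0.80 ± 0.27, limma adjusted p = 0.0106) lost its call without the resting library of replicate 2 (limma adjusted p = 0.0675) or the stimulated library of replicate 1 (limma adjusted p = 0.0561). Over its 13 alternatives that adjusted p ran from 0.00945 to 0.0675. The Ccrl2 promoter, of an atypical chemerin-binding receptor, had WT means of 245, 586 and 306, with 306 also under PGE2 at rest. Among the decay factors, Zfp36l1 (an ARE-binding protein) had 39.9, 134 and 51.9, Btg1 (a deadenylase partner) 37.5, 122 and 54.6, and Zc3h12a (the RNase Regnase-1) 96.6, 194 and 78.9.

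**Figure D5:**
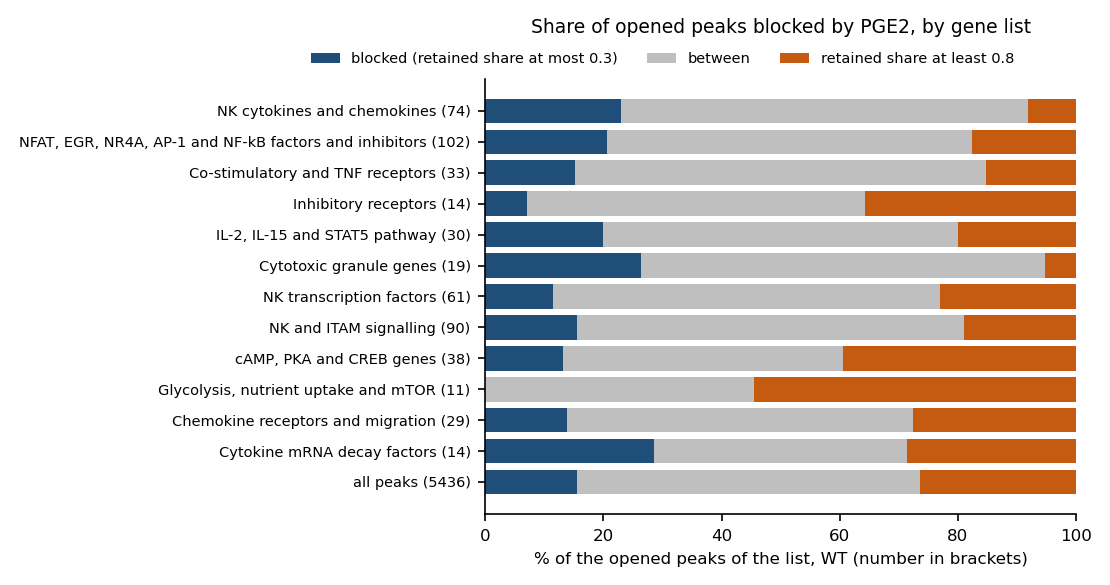
Share of the stimulation-opened peaks of each gene list (x axis, %) that were blocked, kept at least 0.8 of the rise, or lay between, with the number of opened peaks in brackets. The class that kept at least 0.8 has no limit on opening by PGE2 alone. Blocked shares run from 0.0% for glycolysis genes to 28.6% for mRNA decay genes, beside 15.5% for all opened peaks.

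Several of the members with the largest rises lay outside these lists. The promoter of Myo1g, a myosin of blood cells (chr11:6522788-6523750), read 29.1 to 40.6 at WT rest, 422 to 554 with stimulation and 37.9 to 77.6 with both, and 488 to 670 in KO cells with both. It had the largest rise among the named promoter members. Intergenic peaks of Grap, a Grb2-like adaptor, and of Fbxo17, an F-box gene, went from 24.4 to 315 and from 5.00 to 72.3 in WT means, and stood at 48.0 and 6.30 with both. An intron peak of the zinc-finger gene Hivep3 went from 29.2 to 330, with 52.4 with both, and a peak by the Pvt1 noncoding RNA gene from 8.82 to 107, with 17.1. Bach1 (a haem-regulated repressor), St5 and Atxn1 members had WT rises of 3.69, 3.67 and 3.54. In untreated KO cells these rose by 2.84 (St5) to 4.72 (Pvt1). The Pvt1 change depends on values near the floor, as its 3 resting KO libraries read 0.0, 7.59 and 9.28. Among members of at least 50 counts the promoter of Fam71b had one of the 5 largest KO changes, 4.08 ± 0.33 (limma adjusted p = 2.75e-13), with WT means of 11.5, 114 and 14.9.

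The 7 members not called with stimulation in untreated KO cells were at Gm49364, 1700016G22Rik, Lyzl1, Ly6a, Pik3c2b, Sema6b and Nedd4. All had WT means under 100 normalised counts with stimulation. The Sema6b promoter had the smallest KO change, 0.22 ± 0.32 (limma adjusted p = 0.586), with 51.4, 51.7 and 25.1 in the KO at rest and 33.9, 44.9, 55.6 and 59.4 with stimulation. Those groups overlapped, and in WT the libraries read 16.7 to 49.6 at rest and 48.6 to 66.6 with stimulation. With PGE2 in both arms 4 members were not called, at Gm49364, 1700016G22Rik, Bcan and Sema6b. The most negative PGE2 changes in stimulated KO cells among members of at least 50 counts were at Vps54 (−0.58 ± 0.28), P2ry2 (−0.57 ± 0.32) and Dlx4os (−0.56 ± 0.29), each with a limma adjusted p of 0.999. At the distal Vps54 peak, KO libraries read 172, 152, 145 and 118 with stimulation and 76.8, 85.6, 124 and 109 with both, which overlap.

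Members often stood beside opened peaks of the same gene with a higher retained share. That share is counted from untreated rest, so it includes any opening by PGE2 alone. Xcl1 had 11 opened peaks and 2 members. The retained share was 0.214 at the member above. It was 0.614 and 0.664 at the opened peaks on either side of that member, whose centres are within 5 kb. At rest, PGE2 alone moved these neighbours by 1.24 and 1.12 and the member by −0.503. Ifng had 9 opened peaks, and only its promoter was a member, at 0.164, while the others retained 0.331 to 0.966, among them the distal peak with the largest rise, 4.29, at 0.580. At Gzmb an exon peak and a distal peak were members (0.271 and −0.099), whereas the promoter retained 0.683 and the distal peak with the largest rise 0.539. PGE2 alone moved that promoter by 0.705 at rest and the exon member by 0.721. Atxn1 had 4 members among 14 opened peaks, and 4 others there kept at least 0.8. PGE2 alone raised those 4 others at rest by 0.459 to 1.68. Ccl1, with 9 opened peaks, had 2 members, and its promoter lay outside at 0.353. In all, the members carried 730 gene names, 97 genes had 2 or more members and 15 had 3 or more. By position, 224 members (26.5%) had another within 50 kb, and 24 runs of 3 or more were found. The same count was not made for other opened peaks, so whether members cluster more than those was not tested. Among the longest runs were 5 members at Tyk2, Cdc37 and Pde4a (39.5 kb on chromosome 9), 4 at Vasp and Fosb and 4 at Atxn1.

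By class, 16.6% of members were promoters, against 5.6% of the other opened peaks and 31.3% of all peaks. The share was 5.7% in the 566 opened peaks that kept at least 0.8 of the rise with a PGE2 change at rest under 0.8. PGE2 at rest still moved those 566 by a median of 0.534. Introns held 39.5% of members and 47.5% of the other opened peaks, intergenic sequence 33.6% and 38.9%, and exons 10.3% and 8.0%. The median width was 951 bp, against 875 bp. For the 659 members whose gene matched a RefSeq start site, the median distance to it was 17.7 kb, against 25.6 kb in the other opened peaks. As 78.0% of members matched, under the 80% needed, this distance is given only for those matched.

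The cells' identity was read from promoter peaks of marker genes. All 10 NK markers had promoter peaks, with summed levels of 9699 to 13140 over the 30 libraries. The sums were 69.5 to 167 for B cell markers (2 of 8 genes with a promoter peak), 57.3 to 309 for T cell markers (1 of 10), 564 to 1036 for myeloid markers (2 of 9) and 48.1 to 103 for erythroid markers (1 of 6). Genes marking ILC2 and ILC3 cells, several of which NK cells also use, summed to 1747 to 2381 (4 of 8). No peak of the NK, B cell, T cell or erythroid marker genes was a member. Members did include 1 intron peak of Csf1r, a myeloid marker, and 3 peaks of Gata3 and Il1rl1 from the ILC list. The part of other cell types in these 4 peaks was not tested.

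At the edges of the rule, the members nearest to the rise threshold were the Nfkbid promoter (1.000), a Dgkh intron peak and the Mir155hg promoter (both 1.003), and a Ube2e3 peak at 0.999 fell just outside. The members nearest to the retained-share threshold were at St5 (0.2999), Chsy1 (0.2998) and Desi2 (0.2997), and Gramd1b at 0.3002 and Nck2 at 0.3005 fell outside. At the third threshold, peaks of 4930459C07Rik (0.788) and Triqk (0.761) were the nearest inside. An intergenic peak of Slc30a3, at 0.821, was the only opened peak that this threshold alone left out.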

How the data were processed

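ATAC-seq of 30 libraries was used as the authors deposited it. Per the submitters' processing notes, Trimmomatic 0.39, Bowtie2 2.4.1 (mm10), MACS2 2.2.7.1 and DESeq2 were used. The deposited signal of each of 38526 peaks is a DESeq2-normalised count, that is, reads scaled by a factor for each library. The sources used here do not give how duplicates and the transposase offset were handled. All values were whole multiples of the value of 1 read (tolerance 0.05), so reads were recovered for edgeR 4.0.16 and DESeq2 1.42.0 as alternatives. The main test was limma 3.58.1 (R 4.3.3) with a mean-variance trend, fitted to all 30 libraries with 1 mean for each of 8 groups, on values after adding 1 and taking log2. It was two-sided, with Benjamini-Hochberg adjustment over the 38525 peaks with a mean of at least 10, and was tested on simulated data. SE is limma's moderated standard error. All 845 members passed the filter.

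The members and gene lists were chosen with earlier results of these data known, so shared patterns are no independent support. Named peaks had at least 50 counts in stimulated WT libraries, 1 per gene. They are the 10 largest rises, the 6 lowest retained shares, up to 3 per list, the 8 genes with most members, and the extremes of the KO changes; others are said to be chosen later. The 18 lists hold 12 of function and 6 of cell type markers. Without a genome, motifs were searched in RefSeq promoter windows, a choice made after the files were seen. The search covered a list of 14 motifs and a pattern of GGAAA followed by AP-1. Alternatives were another pseudocount, scaling, filter, test, thresholds, a replicate block and leaving out each library. The peaks of 1 gene are counted among the members but not reported here.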

Additional observations from a re-analysis of the deposited data

Results flagged for a closer look

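In groups of 4 libraries, a library was picked out when its gap to the nearest other exceeded Dixon's 95% critical value as a share of the group's range. Chance alone does this in about 1 in 20 groups, and 462 groups were examined. In the WT, untreated resting library 4 stood apart at Atxn1 (11.94), Tnfrsf18 (51.35), Bcl2 (74.04) and Gzmb (29.86), library 1 at Runx1 (29.05), library 2 at Pik3c2b (61.23) and library 3 at Nfkbie (398.6). With stimulation, WT library 1 was high at Tnfsf10 (89.05) and Ccl4 (2177), and library 3 at Sema6b (66.58). With stimulation and PGE2, WT library 1 was low at Ccl9 (55.67) and high at Ccrl2 (334.0), and library 4 was low at Prkar1b (22.43) and Il1rl1 (63.56). In the KO with stimulation, library 1 was low at Grap (366.6) and Tnfaip3 (95.69), library 3 high at Il1rl1 (220.4) and library 2 apart at Plcg2 (199.7). With PGE2 at rest, KO library 3 was high at Atp2b4 (24.25) and low at Tnfaip3 (8.558), library 1 was apart at Tnfsf10 (21.05), Csf1r (111.1) and Syk (123.9), and library 4 at Junb (270.1). With stimulation and PGE2, KO library 3 was high at Tnfrsf18 (208.5), Gata3 (308.7) and Btg1 (175.9), library 2 high at Nfkbid (404.0), library 1 apart at Sema6b (28.46), Ccl3 (374.2) and Syk (334.4), and library 4 at Il2ra (722.4). All values are normalised counts.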

How the results depend on the processing

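The number of members followed its thresholds: 448 at a retained share of at most 0.2, 1319 at 0.4 and 420 at a rise of at least 1.5. A pseudocount of 5 gave 852 members (802 of the 845 among them), TMM rescaling 833 (828) and group medians 852 (747). Leaving out each WT library in turn gave 805 to 903. Of the members, 822 to 835 were called higher in untreated KO cells and 833 to 841 in PGE2-treated KO cells when each KO library was left out, and 838 to 840 and 841 under edgeR, DESeq2, pseudocount 5, no filter, KO libraries alone and the replicate block. With PGE2, 0 were called under each of these. The KO retained share ranged from 0.901 to 0.953. With the replicate block, 840 and 841 members were called. Same-numbered KO libraries deviated together with r from 0.006 to 0.526, over 0.1 in 19 of 21 pairs (median 0.221), against 17 of 63 pairs of different numbers (median −0.102), and 12 of 15 KO libraries correlated best with their own number. This is a hint of pairing from the data, not the design. As 2 pairs were not over 0.1 and the labels do not say what a number marks, the block was kept as an alternative. Of the named peaks, Nedd4 gained its call in untreated KO cells with the replicate block, edgeR and DESeq2 (adjusted p 0.0261, 0.0404 and 0.0379, and up to 0.167 over its 13 alternatives), and a call was lost when 1 library was left out at 8430430B14Rik (any of 5 libraries, adjusted p up to 0.157) and at Cxcr4 (0.0675) in untreated KO cells, and at Ly6a (0.206) and Pik3c2b (0.145) in PGE2-treated KO cells. The cause was not tested. Motif windows of 200 and 300 bases around peak centres were not run, as no genome was used here. Libraries held 8444350 to 20153816 reads in peaks, and how far depth limits small PGE2 changes in the KO was not tested.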
